A study of Mus musculus with 4 samples.

Results

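The 8 genes *Sele*, *Selp*, *Icam1*, *Icam2*, *Vcam1*, *Ackr1*, *Pecam1* and *Madcam1* encode surface molecules that slow, arrest and pass leukocytes across the vessel wall, or mark the venules where this occurs. They were chosen by symbol from the 31053 genes listed, with earlier results of these data known. Each of the 8 had at least 1 unique molecular identifier (UMI, a tag that counts an RNA molecule once) in a kept cell. The cells came from whole hippocampi of C57BL/6 mice, 12 weeks old by the labels and 6 to 10 weeks old by the methods of the study, which used males, and 1 library was made per mouse. In 2VO mice (2-vessel occlusion, a model of transient global ischemia) both common carotid arteries were clamped for 50 min, in sham mice the clamps were taken off at once, and tissue was taken at day 7. Sham 1, sham 2 and 2VO 1 were used, and 2VO 2 was not analysed here. The tissue was digested with pronase before droplet capture, with 3′ chemistry of version 2, and the cells were not sorted.

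After 14147 barcodes with at least 650 detected genes had been kept, sham 1 held 5109 cells, sham 2 held 5126 and 2VO 1 held 3912. The 2VO library was the shallowest, with a median of 2311 UMIs per cell against 8191 and 5249 in the sham libraries. Pairs of libraries shared 7 to 10 cell barcodes. Endothelial cells (ECs) numbered 1030, 1608 and 1198 in sham 1, sham 2 and 2VO 1, and their 7 markers summed to 21341, 22666 and 18245 CPM (UMIs per 1000000 UMIs of that cell type and library, with TMM-scaled totals, used throughout). UMI counts from 3′ ends do not scale with gene length, so levels can be set side by side between genes, within the limit that capture differs between transcripts. The 8 genes were kept out of the genes used for clustering, so the clusters were not built on them.

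Leukocytes leave the blood mainly in postcapillary venules. The selectins (*Sele*, E-selectin, and *Selp*, P-selectin) catch passing cells on carbohydrate ligands, the immunoglobulin-type receptors (*Icam1*, *Icam2*, *Vcam1* and *Madcam1*) bind integrins for firm arrest, and *Pecam1* lies at endothelial junctions where cells cross. *Ackr1*, the atypical chemokine receptor also known as DARC, binds chemokines without G-protein signalling and is a marker of venular endothelium. Resting endothelium of the brain carries little selectin, and *Sele*, *Icam1* and *Vcam1* are textbook targets of NF-kB in endothelium treated with tumour necrosis factor or interleukin-1.

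In the coordinates of GRCm38, *Sele* (ENSMUSG00000026582) lies at chr1:164048234-164057677 and *Selp* (ENSMUSG00000026580) at chr1:164115264-164150026, side by side on the plus strand. *Icam1* (ENSMUSG00000037405) lies at chr9:21015985-21028817, *Icam2* (ENSMUSG00000001029) at chr11:106377656-106388075 and *Vcam1* (ENSMUSG00000027962) at chr3:116109949-116129688. *Ackr1* (ENSMUSG00000037872) lies at chr1:173331886-173333750, *Pecam1* (ENSMUSG00000020717) at chr11:106654217-106750628 and *Madcam1* (ENSMUSG00000020310) at chr10:79664559-79668537. In the GENCODE M21 annotation of that build the body of *Ackr1* overlaps the neuronal adhesion gene *Cadm3* on the same strand by 493 bases. The kit marks strand, so the antisense genes that overlap *Icam1*, *Selp* and *Vcam1* can be told apart from them, while a read from the stretch shared by *Ackr1* and *Cadm3* cannot be assigned by strand.

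Promoter sequence was at hand for 5 of the 8 genes (RefSeq, GRCm38.p6; not for *Icam2*, *Vcam1* and *Pecam1*), and the 250 bases before each start site are shown because *Sele*, *Selp*, *Icam1* and *Ackr1* were all higher in the 2VO ECs described next. Capitals mark matches to GGNNNTTCC or GGNNNNTTCC on either strand, the letters of NF-kB-type sites of 9 and 10 bases, and to TATAAA on either strand. The letters were chosen after the promoters had been read, and the 9- and 10-base patterns can overlap.
*Sele*, chr1:164047984-164048233, plus strand: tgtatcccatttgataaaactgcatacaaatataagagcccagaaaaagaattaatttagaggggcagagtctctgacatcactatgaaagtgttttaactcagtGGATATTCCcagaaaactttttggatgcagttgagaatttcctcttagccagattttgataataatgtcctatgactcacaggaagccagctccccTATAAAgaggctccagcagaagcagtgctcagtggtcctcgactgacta
*Selp*, chr1:164115014-164115263, plus strand: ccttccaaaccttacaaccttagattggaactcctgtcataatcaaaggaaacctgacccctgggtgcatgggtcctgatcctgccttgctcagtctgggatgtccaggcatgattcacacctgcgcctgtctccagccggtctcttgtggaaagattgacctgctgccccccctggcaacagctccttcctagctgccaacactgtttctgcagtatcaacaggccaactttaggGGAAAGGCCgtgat
*Icam1*, chr9:21015690-21015939, plus strand: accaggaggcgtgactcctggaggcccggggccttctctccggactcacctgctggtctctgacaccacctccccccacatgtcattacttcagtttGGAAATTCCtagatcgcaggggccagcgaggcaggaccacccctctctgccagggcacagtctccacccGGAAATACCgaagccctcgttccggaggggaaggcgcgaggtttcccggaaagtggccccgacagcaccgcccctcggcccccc
*Ackr1*, chr1:173333504-173333753, minus strand: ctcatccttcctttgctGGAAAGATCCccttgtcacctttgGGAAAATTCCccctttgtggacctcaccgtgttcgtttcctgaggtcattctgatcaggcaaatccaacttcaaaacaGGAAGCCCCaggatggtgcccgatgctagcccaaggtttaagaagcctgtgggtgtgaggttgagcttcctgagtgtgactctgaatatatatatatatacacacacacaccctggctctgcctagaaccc
*Madcam1*, chr10:79664309-79664558, plus strand: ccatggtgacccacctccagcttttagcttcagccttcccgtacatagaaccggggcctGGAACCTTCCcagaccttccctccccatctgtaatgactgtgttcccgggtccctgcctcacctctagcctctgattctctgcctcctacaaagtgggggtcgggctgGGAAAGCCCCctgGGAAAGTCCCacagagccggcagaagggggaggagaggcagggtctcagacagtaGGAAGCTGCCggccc
The *Sele* window held GGATATTCC at 145 to 137 bases before the start and TATAAA at 49 to 44. The *Icam1* window held GGAAATTCC at 153 to 145 and GGAAATACC at 84 to 76, and the *Selp* window held GGAAAGGCC at 14 to 6. The *Ackr1* window held a 9-base match and 2 of 10 bases, and all but 3 of its bases lie within the GENCODE bounds of *Ackr1*, since the RefSeq start is further downstream. Of 32851 promoter windows of the same length, 24.9% held a 9- or 10-base match and 12.4% held TATAAA, so a match is common and was read only as a description of these letters. The *Madcam1* window held more matches than any of the other 4, and *Madcam1* had no UMI in ECs.

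The first comparison asked which of the genes differed between 2VO and sham hippocampal endothelium. *Ackr1*, *Sele*, *Selp*, *Vcam1* and *Icam1* were higher in the ECs of the 2VO mouse than in those of both sham mice, and *Icam2* and *Pecam1* were not called. For these 5 the 2VO level lay above both sham levels, as it did for 40% of all genes tested, so the place of the 2VO value alone says little. Of the 7 genes that passed the filter on low counts, 5 rose and 0 fell, where 2.16% of the 12060 genes tested were called higher (adjusted p under 0.05 by the quasi-likelihood test of edgeR with Benjamini-Hochberg adjustment, and a fold over 1.5). The 2 selectins and *Ackr1* were at or near 0 in sham and could pass the filter through the 2VO library alone. The genes were also chosen with earlier results of these data known, so 5 of 7 beside 2.16% is a description and no test. Markers of other cell types also moved with 2VO in these ECs, with oligodendrocyte markers at 253, 72.1 and 637 CPM in sham 1, sham 2 and 2VO 1, oligodendrocyte precursor markers at 16.4, 11.3 and 136 CPM and choroid plexus epithelial markers at 21.4, 22.1 and 59.7 CPM, each with 6 of 6 above both sham libraries. The mitochondrial share of UMIs over all kept cells was 3.38%, 4.09% and 5.89%, and the part of these values in the results was not tested.

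**Figure D1:**
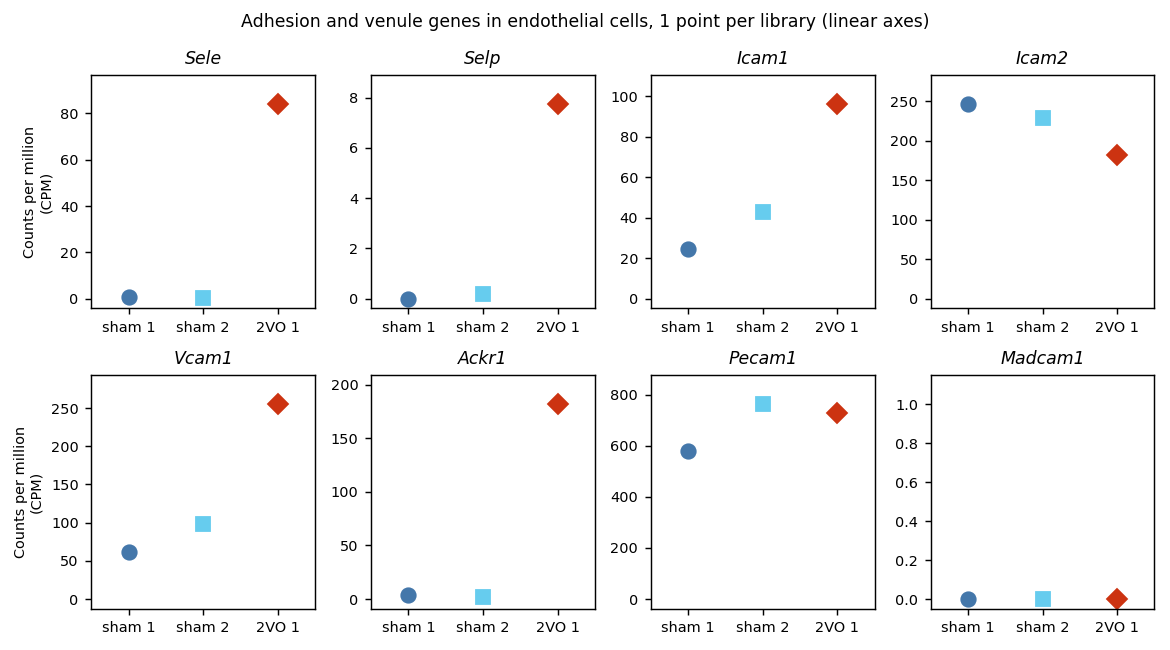
Level of each of the 8 genes in all ECs (vertical axes, CPM, linear, a scale of its own for each gene) in sham 1, sham 2 and 2VO 1 (1 point per library, no error bar). *Sele*, *Selp* and *Ackr1* lie near 0 in both sham libraries and at 84.2, 7.76 and 182 CPM in 2VO 1, while *Pecam1* in 2VO 1 lies between the sham libraries.

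Of the selectins, *Sele* had 3 UMIs in the ECs of sham 1, 1 in those of sham 2 and 293 in those of 2VO 1, which is 0.747, 0.174 and 84.2 CPM. The pooled ratio of 2VO to sham was 227, with a counting interval from 87.8 to 839. The log2 fold change was 7.58 ± 0.38 (SE, n = 2 sham and 1 2VO, edgeR adjusted p = 0.00023), and leaving out sham 1 gave 8.72, leaving out sham 2 6.76. *Selp* had 0, 1 and 27 UMIs in the same order, or 0, 0.174 and 7.76 CPM. Its pooled ratio was 83.7, with a counting interval from 13.8 to 3429, and the edgeR adjusted p was 0.0279. Both selectins were thus higher in 2VO 1 than in either sham library, and the size of the difference rests on 4 sham UMIs for *Sele* and on 1 for *Selp*. The fitted log2 fold change of *Selp*, 5.90, was 5.29 without sham 1 and 7.87 without sham 2. With DESeq2 the adjusted p of *Selp* was 0.114.

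Of the integrin ligands, *Vcam1*, the receptor for integrin alpha4 beta1, stood at 61.5 CPM in sham 1, 98.2 in sham 2 and 255 in 2VO 1. The log2 fold change was 1.67 ± 0.25 (SE, edgeR adjusted p = 0.0211). *Icam1*, which binds the beta2 integrins of leukocytes, stood at 24.4, 42.9 and 96.2 CPM, a log2 fold change of 1.49 ± 0.28 (SE, edgeR adjusted p = 0.0425). The 2VO value was 2.60 times the higher sham value for *Vcam1* and 2.24 times for *Icam1*, while the sham libraries themselves differed by 1.60 and 1.76 times. The call of *Icam1* was lost with DESeq2 (adjusted p = 0.0661). *Icam2*, which binds the same integrins and is made by resting endothelium, stood at 247, 229 and 182 CPM. Its log2 fold change was -0.38 ± 0.18 (SE, edgeR adjusted p = 0.253), and 2VO 1 lay below both sham libraries. *Madcam1*, the addressin of gut venules, had 0 UMIs in 1030, 1608 and 1198 ECs, which allows a share of cells with a UMI of up to 0.291%, 0.187% and 0.250%.

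*Ackr1* stood at 3.49 CPM in sham 1, 2.09 in sham 2 and 182 in 2VO 1, from 14, 12 and 633 UMIs. The log2 fold change was 6.07 ± 0.25 (SE, edgeR adjusted p = 7.8e-05), and the pooled ratio of 75.5 had a counting interval from 51.1 to 117. *Pecam1*, which lines the junctions of endothelium throughout the vessel tree, stood at 581, 763 and 727 CPM, and its log2 fold change of 0.11 ± 0.22 (SE, edgeR adjusted p = 0.803) was smaller than its error. With the 8 genes allowed among the clustering genes, the calls of *Ackr1* and *Sele* were kept and those of *Selp*, *Vcam1* and *Icam1* were lost (edgeR adjusted p = 0.0612, 0.0612 and 0.0857). Counts summed over ECs cannot tell more cells of 1 kind from more RNA per cell.

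ECs were divided by cluster, and clusters were named from markers of arterial, capillary, venous and fenestrated endothelium that do not include the 8 genes. The venous-like cluster held 71, 99 and 168 cells of sham 1, sham 2 and 2VO 1, with 9 of its 9 markers detected. Its leading genes were *Lcn2* and *Lrg1*, which stood at 31.5, 144 and 9101 CPM and at 96.8, 104 and 1789 CPM in its cells of sham 1, sham 2 and 2VO 1. Because genes that helped to form the cluster differed between the groups, its cells in sham and 2VO may not be like populations, and the cell numbers were not compared. A cluster of 956 ECs led by *Atf3*, *Fos*, *Junb* and *Hspa1a*, genes known to respond to tissue dissociation, was left unnamed.

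In venous-like cells 4 of the 7 genes that passed the filter rose with 2VO, *Sele*, *Ackr1*, *Selp* and *Icam1*, and 0 fell, where 2.45% of 7225 genes were called higher. The selectins could pass the filter here through the 2VO library alone, so the filter fixes part of this count. *Sele* had 1, 1 and 273 UMIs in sham 1, sham 2 and 2VO 1, or 2.42, 2.48 and 403 CPM. The pooled ratio was 156, with a counting interval from 42.7 to 1294. *Ackr1* stood at 33.9, 22.3 and 919 CPM, a log2 fold change of 5.02 ± 0.35 (SE). *Selp* stood at 0, 2.48 and 39.8 CPM from 0, 1 and 27 UMIs (edgeR adjusted p = 0.0118). *Icam1* stood at 70.2, 164 and 385 CPM, a log2 fold change of 1.72 ± 0.29 (SE), which was 1.21 without sham 1 and 2.43 without sham 2. The sham libraries lay below 2VO 1 for each of these 4 genes, as for 34.9% of all genes tested in these cells.

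*Vcam1* was already high in venous-like cells of sham mice, at 387 CPM in sham 1 and 707 in sham 2, against 976 in 2VO 1. Its log2 fold change there was 0.83 ± 0.33 (SE, edgeR adjusted p = 0.195) and was not called. *Pecam1* (506, 717 and 785 CPM) and *Icam2* (307, 221 and 215 CPM) were not called either. The 4 calls in venous-like cells rested on a filter on low counts. Without it the adjusted p was 0.703 for each of the 4, although the log2 fold changes moved by at most 0.029. With DESeq2 the adjusted p of *Icam1* was 0.789, and none was given for *Selp*. With *Lcn2*, *Lrg1* and the NF-kB list also left out of the clustering genes, a choice made after seeing the data, the venous-like cluster held 32, 50 and 125 cells, the log2 fold changes of *Sele*, *Ackr1* and *Icam1* were 6.57, 4.45 and 1.78 and still called, and *Selp* was not (adjusted p = 0.365).

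**Figure D2:**
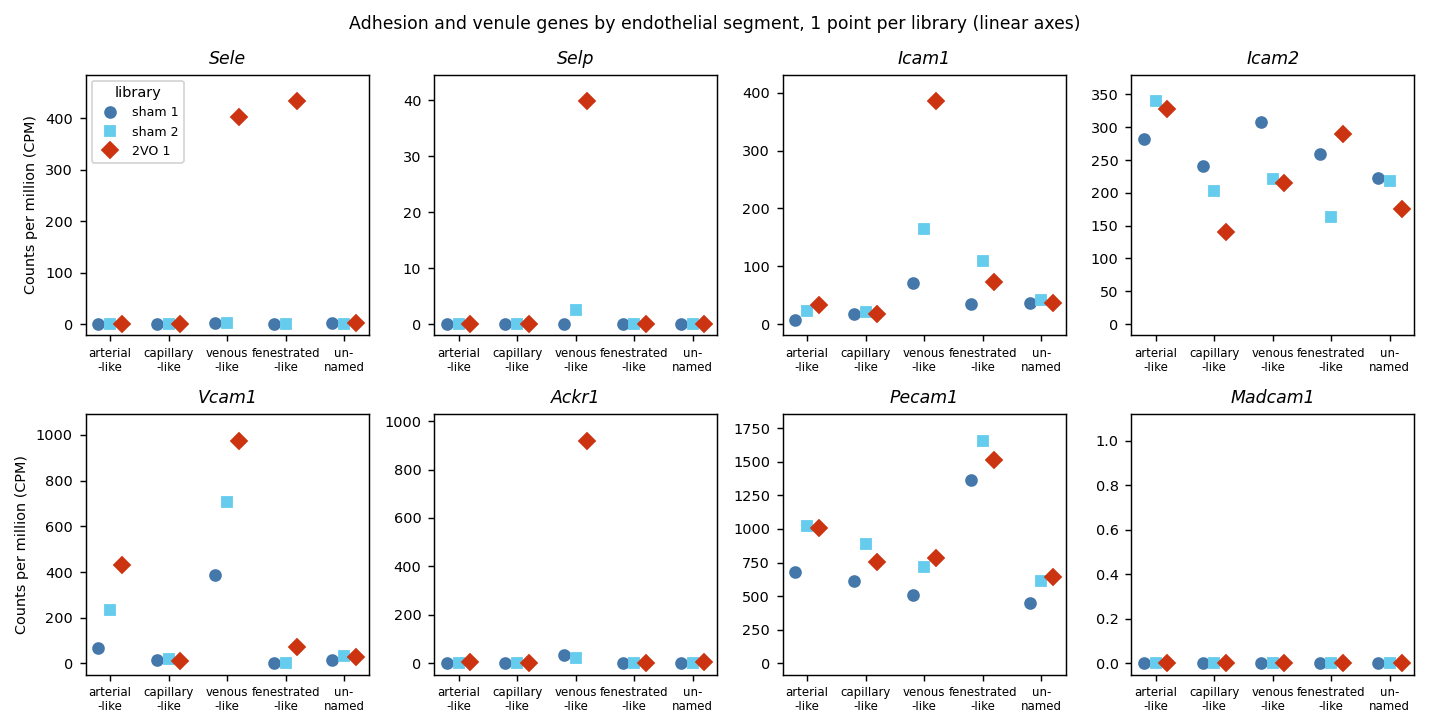
Level of each of the 8 genes (vertical axes, CPM, linear) in arterial-like, capillary-like, venous-like, fenestrated-like and unnamed ECs, with 1 point per library (circles sham 1, squares sham 2, diamonds 2VO 1). *Selp* and *Ackr1* of 2VO 1 stand out in venous-like cells, at 39.8 and 919 CPM, and the *Sele* value of 433 CPM in fenestrated-like cells of 2VO 1 came almost whole from 1 cell.

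The other segments differed in how much of each gene they held. In arterial-like cells *Vcam1* rose from 65.6 and 235 CPM to 430, a log2 fold change of 1.53 ± 0.35 (SE, edgeR adjusted p = 0.0149). It was the 1 gene called of 4 that passed the filter there, where 0.966% of 8485 genes were called higher. The 2 sham libraries were 3.58 times apart, and leaving out sham 1 gave a log2 fold change of 0.88, leaving out sham 2 one of 2.72. The call was also lost with DESeq2 (adjusted p = 1.00). In capillary-like cells 0 of 4 genes were called by edgeR or DESeq2, where edgeR called 3.77% of 10667 genes in either direction, and 1 of the 4, *Icam2*, had an unadjusted p under 0.05, as 14.8% of all genes did, with lower values in 2VO 1 (240, 202 and 141 CPM). *Vcam1* was low in capillary-like cells, at 13.7, 17.3 and 12.6 CPM, and so was *Icam1*, at 17.3, 21.4 and 17.0 CPM. In the unnamed cluster 0 of 4 genes were called by edgeR or DESeq2 and 0 had an unadjusted p under 0.05, where 1.56% of 9173 genes were called in either direction and 13.1% had such a p.

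With the venous-like cells left out of the ECs, an alternative added after seeing the data, 5 of the genes passed the filter. *Selp*, *Ackr1* and *Madcam1* did not and were not tested. By edgeR or DESeq2 0 of the 5 were called, where edgeR called 1.69% of 11870 genes higher. Unadjusted p was under 0.05 for 19.9% of all genes and for 2 of the 5. These were *Sele* (edgeR adjusted p = 0.0619) and *Vcam1* (24.2, 52.5 and 83.8 CPM, adjusted p = 0.155). *Sele* had 2, 0 and 20 UMIs there and could pass the filter through the 2VO library alone. Of these 20 UMIs of 2VO 1, 18 were in the fenestrated-like cells described below. *Icam1* in ECs without the venous-like cells was 19.2, 33.9 and 27.2 CPM, with 2VO 1 between the sham libraries. In the 2VO library venous-like cells held 22.3% of all EC UMIs, 93.2% of the EC UMIs of *Sele*, 100% of those of *Selp*, 98.4% of those of *Ackr1*, 77.9% of those of *Icam1* and 74.4% of those of *Vcam1*. For *Pecam1* the share was 21.0% and for *Icam2* it was 23.0%. In sham 1 and sham 2 they held 10.1% and 6.97% of all EC UMIs, and the EC UMIs of *Ackr1* (100% and 75%), *Vcam1* (64.8% and 50.4%) and *Icam1* (29.6% and 26.7%) were over that share there too, while for *Pecam1* it was 8.96% and 6.58% and for *Icam2* 12.8% and 6.74%. Whether the effect of 2VO differs between segments was not tested, since segments of 1 mouse are not replicates.

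Fenestrated-like cells, marked by *Plvap*, numbered 22, 15 and 27. *Sele* was at 0, 0 and 433 CPM there, from 18 UMIs in 2 cells of 2VO 1, of which 17 were in 1 cell, and it was not called (edgeR adjusted p = 0.187, 0 of 3 genes called, 1.16% of 1719 genes called higher, 0 of 3 by DESeq2). It was the 1 gene of 3 with an unadjusted p under 0.05, where 9.31% of all genes had one. These cells had the highest *Pecam1* of the segments, at 1367, 1658 and 1517 CPM.

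The share of venous-like cells with a UMI gives the same genes cell by cell. *Sele* was found in 1 of 71 cells in sham 1 (1.41%), 1 of 99 in sham 2 (1.01%) and 44 of 168 in 2VO 1 (26.2%, exact binomial 95% interval 19.7 to 33.5, for counting error only, here and below). After each cell had been thinned to 1000 UMIs, which left out 5 shallower cells of 2VO 1, the shares were 1.41%, 0% and 12.9%. *Ackr1* was found in 7.04%, 4.04% and 44.0% of cells, and after thinning in 0%, 1.01% and 31.9%. *Selp* was found in 12 cells of 2VO 1 (7.14%, interval 3.75 to 12.1), in 1 cell of sham 2 and in 0 of 71 cells of sham 1, which allows a share of up to 4.23%. The intervals of *Sele* and *Ackr1* in 2VO 1 lay apart from those of both sham libraries before and after thinning, and those of *Selp* did not.

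Of the integrin ligands, *Icam1* was found in 26.8%, 20.2% and 39.3% of venous-like cells of sham 1, sham 2 and 2VO 1, and after thinning in 7.04%, 6.06% and 21.5%. *Vcam1* was found in 49.3%, 41.4% and 51.2%, and after thinning in 16.9%, 27.3% and 36.8%. Its CPM in 2VO 1 was higher than in both sham libraries, while the intervals of its unthinned shares overlapped. *Pecam1* was found in 85.9%, 86.9% and 84.5% of the cells. In oligodendrocytes (OLGs) of 2VO 1, a cell type that should lack these genes, *Sele* and *Selp* were found in 0 of 842 cells, which allows a share of up to 0.356%, while *Ackr1* was found in 1.31%, *Icam1* in 2.14%, *Vcam1* in 2.02% and *Pecam1* in 7.36%, at a median of 2279.5 UMIs per cell against 2802.5 in the venous-like cells.

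**Figure D3:**
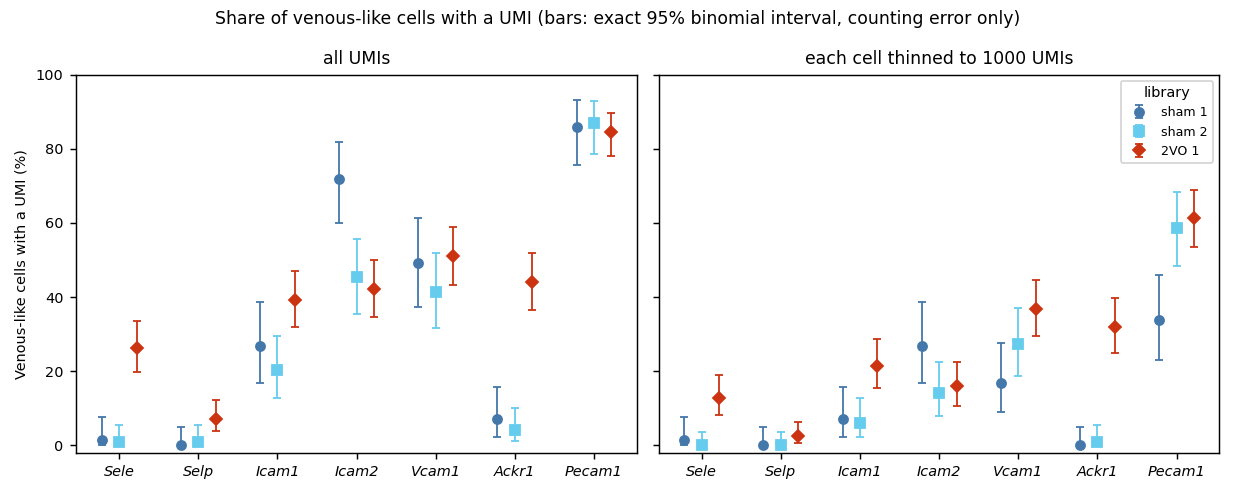
Share of venous-like cells with at least 1 UMI of each gene (vertical axis, percent) with all UMIs (left) and with each cell thinned to 1000 UMIs (right), where points are libraries and bars are exact binomial 95% intervals for counting error. *Ackr1* in 2VO 1 stands at 44.0% and, thinned, at 31.9%, above both sham libraries, while *Pecam1* lies near 85% in each library before thinning.

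The 5 genes that rose in ECs were also counted together in single venous-like cells. They were taken because they were higher in 2VO 1, so a higher share of cells with several of them there follows in part from that choice. At least 3 of the 5 were found in 4 of 71 cells of sham 1 (5.63%), 2 of 99 of sham 2 (2.02%) and 51 of 168 of 2VO 1 (30.4%). With cells thinned to 1000 UMIs the counts were 1 of 71, 0 of 99 and 18 of 163. Of the 44 cells of 2VO 1 with *Sele*, 40 also held *Vcam1*, 35 *Icam1*, 34 *Ackr1* and 11 *Selp*, against 37.1%, 25.0%, 32.3% and 0.806% of the cells without *Sele*. The 12 cells with *Selp* each held *Ackr1*. Cells with *Sele* had a median of 6423 UMIs and those without it 2344.5, so depth moved with co-detection, and its part was not tested. Some cells held many copies, with up to 48 UMIs of *Ackr1*, 42 of *Sele* and 55 of *Vcam1* in 1 cell of 2VO 1, against at most 7, 1 and 50 in 1 venous-like cell of the sham libraries.

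The next comparison asked where the genes were found outside endothelium. Of the *Icam1* UMIs of kept cells, ECs held 24.6% in sham 1, 42.4% in sham 2 and 47.2% in 2VO 1. Microglia had the highest *Icam1* level of the classes in each library, at 239, 215 and 243 CPM, with a log2 fold change of 0.10 ± 0.22 (SE, edgeR adjusted p = 0.820). Macrophages (0, 81.4 and 106 CPM from 0, 7 and 12 UMIs) and vascular leptomeningeal cells (VLMCs; 31.5, 92.9 and 63.5 CPM) came next, and overlapped ECs (24.4, 42.9 and 96.2 CPM). Thinned to 1000 UMIs, 17.4%, 12.9% and 17.1% of microglia held an *Icam1* UMI.

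*Vcam1* was mostly not endothelial, with 6.87%, 22.5% and 30.9% of its UMIs in ECs of sham 1, sham 2 and 2VO 1. ECs held 6.28%, 15.6% and 18.5% of all UMIs in the same order, so in sham 1 the *Vcam1* share was near that of all UMIs. VLMCs (661, 434 and 310 CPM) and macrophages (296, 430 and 397 CPM) had the highest levels in sham, and their values overlapped. Astrocytes (ASTs) followed at 164, 170 and 201 CPM and choroid plexus epithelial cells (CPECs) at 118, 150 and 193 CPM. ECs stood below each of these in both sham libraries and above ASTs and CPECs in 2VO 1. Oligodendrocyte precursor cells (OPCs) held 21.1, 21.0 and 31.3 CPM. None of these differences between 2VO and sham outside ECs was called for *Vcam1*.

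The *Ackr1* UMIs lay in other cell types in sham than in 2VO. ECs held 12.3% of its 114 UMIs in sham 1, 14.3% of its 84 in sham 2 and 90.2% of its 702 in 2VO 1. In sham mice most other *Ackr1* UMIs were in glutamatergic neurons (GLUTNs; 60.2, 24.5 and 20.8 CPM), GABAergic neurons (GABANs; 38.5, 21.7 and 78.8 CPM, from 15, 6 and 5 UMIs) and OPCs (4.76, 5.15 and 7.97 CPM). In the same classes the overlapping gene *Cadm3* stood at 144, 226 and 139 CPM in GLUTNs, 109, 118 and 194 CPM in GABANs and 33.7, 54.7 and 73.1 CPM in OPCs. In venous-like cells *Cadm3* stood at 2.33, 7.17 and 19.7 CPM, where *Ackr1* of 2VO 1 was at 919. The *Ackr1* counts of neurons and OPCs are therefore uncertain, and whether they come from *Cadm3* transcripts was not tested.

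*Sele* and *Selp* were almost confined to ECs in 2VO 1, which held 97.7% of 300 *Sele* UMIs and 96.4% of 28 *Selp* UMIs. *Madcam1* had 14, 9 and 27 UMIs in kept cells, of which 11, 9 and 27 were in CPECs, at 0.468, 1.05 and 2.98 CPM (edgeR adjusted p = 0.0720). *Pecam1* and *Icam2* were endothelial in each library, with 81.2% to 91.9% and 82.2% to 92.4% of their UMIs in ECs. In the sham libraries pericytes (PERs) came next for *Pecam1* (83.0, 313 and 123 CPM) and *Icam2* (86.9, 97.0 and 26.5 CPM), and the 7 EC markers summed to 4795, 10496 and 3173 CPM in the same PERs. In macrophages *Pecam1* had 0, 0 and 24 UMIs, and the EC markers summed to 34.9, 128 and 4725 CPM, so endothelial RNA moved with *Pecam1* there, and its part was not tested.

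**Figure D4:**
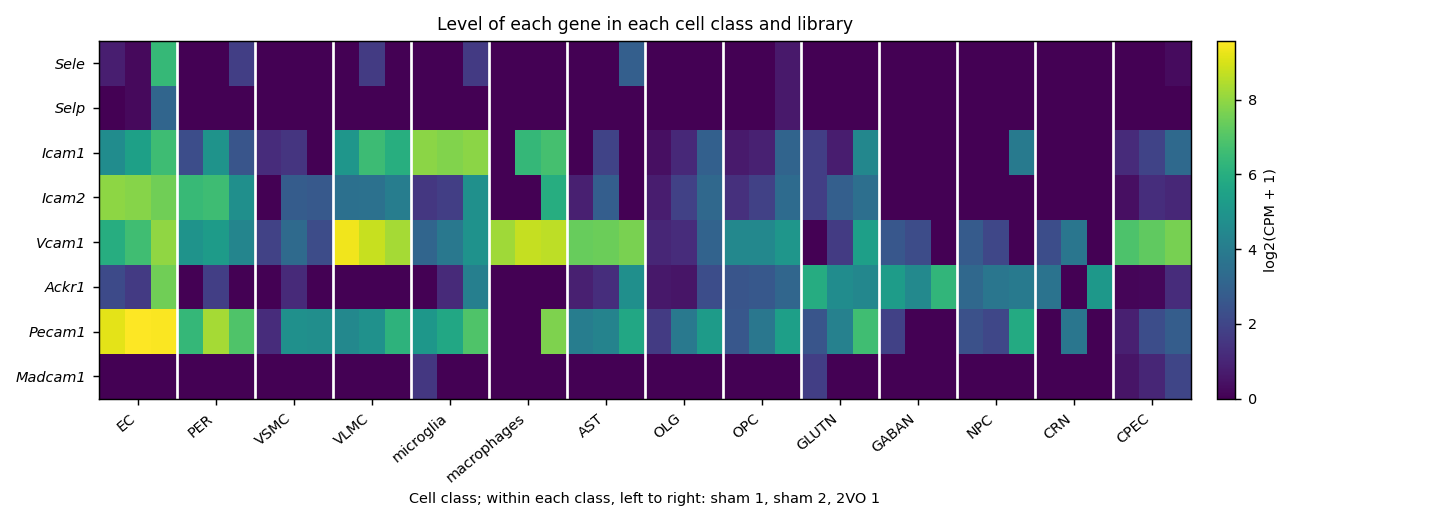
Level of each of the 8 genes (rows) in each cell class (column groups of sham 1, sham 2 and 2VO 1, left to right), as log2(CPM + 1) by colour; CRN are Cajal-Retzius neurons and NPC neuronal precursor cells. *Pecam1* and *Icam2* are brightest in ECs, *Vcam1* in VLMCs and macrophages, *Icam1* in microglia, and *Sele* and *Selp* in ECs of 2VO 1.

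Outside ECs, 4 values were called by edgeR, each higher in 2VO, and DESeq2 gave no adjusted p for any of the 4. *Icam1* rose in CPECs from 1.28 and 2.80 CPM to 8.71 (edgeR adjusted p = 0.0072), 1 of 6 genes where 1.62% of 12821 genes were called higher. *Icam1* (0.595, 0.858 and 7.40 CPM, edgeR adjusted p = 0.0305) and *Pecam1* (5.06, 12.9 and 41.0 CPM, adjusted p = 0.0101) rose in OPCs, 2 of 5 genes where 10.8% of 12498 were called higher. *Pecam1* rose in GLUTNs from 4.82 and 17.3 CPM to 98.8 (edgeR adjusted p = 0.00038), 1 of 2 genes where 2.91% of 8337 were called higher. The 7 EC markers were higher in 2VO 1 than in both sham libraries for 7 of 7 in OPCs (summed level 186, 472 and 1051 CPM) and for 6 of 7 in GLUTNs (260, 587 and 1481 CPM) and in CPECs (109, 163 and 220 CPM), where 45%, 43.3% and 40.3% of all genes in OPCs, GLUTNs and CPECs were. The 7 microglial markers summed to 84.1, 50.2 and 280 CPM in OPCs and to 25.4, 24.3 and 52.7 CPM in CPECs. RNA of both cell types thus moved with *Icam1* and *Pecam1* there, and its part in the result was not tested. The 4 values without sham 1 were 1.62 for *Icam1* in CPECs, 3.03 and 1.68 for *Icam1* and *Pecam1* in OPCs and 2.46 for *Pecam1* in GLUTNs on the log2 scale, and without sham 2 they were 2.76, 3.53, 2.97 and 4.33, beside 2.23, 3.39, 2.36 and 2.86 with both.

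In OLGs (0 of 5 genes), PERs (0 of 4), microglia (0 of 5) and macrophages (0 of 2), edgeR called no gene of the 8 and 0% of all genes tested, and DESeq2 called 0 as well, with no adjusted p for 10 of the 16 values. Unadjusted p was under 0.05 for 4 of 5 in OLGs, 4 of 5 in microglia, 1 of 2 in macrophages and 1 of 4 in PERs, against 32.7%, 22.1%, 10.4% and 15.5% of all genes in the same classes. These genes were higher in 2VO 1, except in PERs, where *Icam2* was lower. The 7 EC markers summed to 85.1, 321 and 852 CPM in OLGs of sham 1, sham 2 and 2VO 1. In microglia they summed to 440, 615 and 2898 CPM. Endothelial RNA thus moved with these genes there, and its part was not tested. In ASTs 0 of 2 were called (1 at an unadjusted p under 0.05, as 13.5% of all genes), where 0.0189% of genes were called in either direction. In VLMCs 0 of 3, in vascular smooth muscle cells 0 of 1 and in GABANs 0 of 1 were called by edgeR or DESeq2 and 0 had an unadjusted p under 0.05, where 0.465%, 0.138% and 0.0655% of genes were called and 7.3%, 14% and 5.53% had such a p. In Cajal-Retzius neurons and neuronal precursor cells none of the 8 passed the filter. Over all kept cells 0 of 8 and 0% of genes were called by edgeR, an unadjusted p under 0.05 was found for 6 of the 8 and 10.6% of all genes, and by DESeq2 2 of the 8 were called.

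Pathway genes were read from lists with the same fit in ECs, where the median log2 fold change of all genes was -0.01. Of all genes tested, 2.16% were called higher in ECs and 2.45% in venous-like cells. The counts for each list, here and below, are to be read beside these shares. Of 23 NF-kB and cytokine response genes tested, 2 rose and 0 fell, and the list's median was 0.58. *Cxcl1*, a neutrophil chemokine, rose from 22.4 and 38.1 CPM to 118 (edgeR adjusted p = 0.0160), and *Nfkbiz*, an inducible regulator of NF-kB, from 16.7 and 27.8 CPM to 64.6 (adjusted p = 0.0342). The NF-kB subunit *Rela* had a log2 fold change of 0.10 and the inhibitor *Nfkbia* one of -0.06, neither called. In venous-like cells 3 of 19 tested rose, *Cxcl1* (4.84, 132 and 486 CPM), *Nfkbiz* (29.0, 59.6 and 151 CPM) and *Tnfaip3* (16.9, 32.3 and 130 CPM), the last encoding a feedback inhibitor of NF-kB.

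Of 17 cytokine receptors tested in ECs, 2 rose and 0 fell, with a median of 0.47. *Il1r1*, the interleukin-1 receptor, rose from 29.4 and 30.8 CPM to 86.7 (edgeR adjusted p = 0.0081) and *Il6ra* from 40.1 and 53.9 CPM to 97.7 (adjusted p = 0.0468). In venous-like cells *Il6ra*, *Osmr* and *Tnfrsf1a* rose, 3 of 15. Of 12 Weibel-Palade body and haemostasis genes, 2 rose and 0 fell in ECs. These were *Vwf*, which forms the granules that store P-selectin protein, from 219 and 209 CPM to 647 (edgeR adjusted p = 0.0058), and *Cd63*, a membrane protein of the same granules, from 18.7 and 19.8 CPM to 48.5 (adjusted p = 0.0214). In venous-like cells 0 of 9 of these genes were called. *Vwf* there was 1157, 1377 and 2328 CPM (edgeR adjusted p = 0.198).

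Of 20 junction and transmigration genes, 1 rose and 0 fell in ECs, with a median of -0.05. It was *Mcam*, an adhesion molecule of endothelium and pericytes, from 10.5 and 13.9 CPM to 40.5 (edgeR adjusted p = 0.0211). In venous-like cells *Podxl* (598, 598 and 1243 CPM, adjusted p = 0.0483) and *Alcam* (12.1, 4.96 and 50.2 CPM, adjusted p = 0.0131) rose, 2 of 20. Of 5 enzymes that build selectin ligands, 0 were called in ECs, and *Chst2* (log2 fold change -0.59, adjusted p = 0.231) and *Gcnt1* (0.96, adjusted p = 0.336) had the smallest p. Of the 9 venous markers that named the cluster, *Il1r1*, *Lcn2*, *Vwf* and *Lrg1* were among those that rose in ECs and 0 fell, a list that also chose the venous-like cells.

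**Figure D5:**
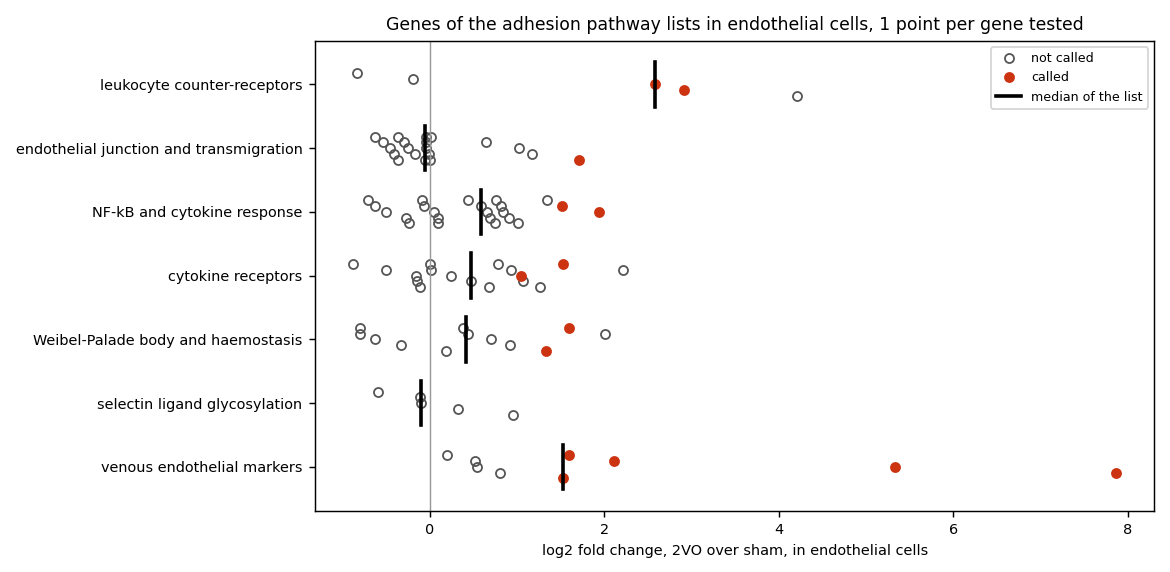
Log2 fold change of 2VO over sham in ECs (horizontal axis) for each gene tested of 7 lists (rows), with called genes filled and a black bar at each list's median. The venous markers have the called genes furthest to the right, among them *Lrg1* at 5.33 and *Lcn2* at 7.87, and the medians of the junction and selectin ligand lists lie near 0.

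The counterparts of these molecules on leukocytes were sought in the same libraries. Of 12 counter-receptor genes 5 could be tested in ECs, and 2 rose, *Selplg*, the ligand of P-selectin (1.99, 1.04 and 11.2 CPM, edgeR adjusted p = 0.0465), and *Cx3cr1*, the fractalkine receptor (2.74, 2.26 and 14.9 CPM, adjusted p = 0.0314). Both are abundant in microglia, where *Selplg* stood at 1763, 2046 and 738 CPM and *Cx3cr1* at 3193, 3340 and 1458 CPM, neither called. In the same ECs the 7 microglial markers, of which *Cx3cr1* is 1, were higher in 2VO 1 for 7 of 7 and summed to 39.6, 34.1 and 124 CPM, and their part was not tested. *Itgal*, a chain of the *Icam1* receptor LFA-1, had 3, 1 and 9 UMIs in microglia.

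Few cells had markers of blood leukocytes. At least 2 of 5 neutrophil markers were found in 0 cells of each library, and at least 2 of 5 T and NK cell markers in 0, 3 and 10 kept cells of sham 1, sham 2 and 2VO 1. At least 2 of 4 monocyte markers were found in 0, 2 and 2 cells and at least 2 of 3 B cell markers in 1, 2 and 0. Of these cells 0 were among the ECs. Platelet markers, named because platelets also carry P-selectin, summed to 16.9, 7.45 and 26.6 CPM in venous-like cells, with *Ppbp*, *Gp9* and *Treml1* at 0 there. At least 2 of the 5 platelet markers were found in 6, 9 and 0 kept cells, of which 1, in sham 2, was an EC. Numbers this small were not compared between groups, and how many blood cells the preparation kept was not tested.

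For each gene with at least 50 UMIs, the other genes whose pattern was most like it over 56 sums of 1 library and 1 cell class or segment were found by Pearson correlation of log2(CPM + 10). The sums of 1 library share depth and ambient RNA, so no test was made. *Pecam1* and *Icam2* were most like general endothelial genes, *Tie1* (r = 0.98), *Adgrl4* and *Tek* for *Pecam1* and *Tek* (r = 0.98), *She* and *C130074G19Rik* for *Icam2*. *Sele* was most like *Il27ra* (r = 0.81), *Lrg1* (r = 0.80) and *4930513D17Rik* (r = 0.72). *Icam1* was most like *Slco2b1* (r = 0.81), *H2-Q6* and *Gngt2*, and *Vcam1* like *Myof* (r = 0.76) and *Dab2*. *Ackr1* was most like *Grem1* (r = 0.69), *Htr2a* and *Kif14*, and *Madcam1*, with 50 UMIs in all, like *Clec18a* (r = 0.72), *CT025624.1* and *Fras1*. *Selp*, with 29 UMIs, was too sparse for this measure.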

How the data were processed

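Hippocampal single-cell libraries of 2 sham mice and 1 2VO mouse were used. The authors deposited matrices of UMI counts (genes by barcodes), made with Cell Ranger 3.1.0 on GRCm38, and Seurat 3.2.2 and mm10 also stand in the submitters' processing notes. All values were whole, so the counts were taken as raw, with totals from 18754480 to 65287386 UMIs per library, and shallower libraries have wider counting error. How cells were called before deposit is not given in the sources used here.

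The 8 genes and all lists were chosen with earlier results of these data known. Barcodes with at least 650 genes were kept and clustered with scanpy 1.11.5 (2000 variable genes without the 8 genes, 30 principal components, 15 neighbours, Leiden resolution 1.0). Clusters were named from fixed marker lists by a rule set after the clusters had been seen, with a marker detected at 10% of cells and a fold of 2, or of 1.3 between endothelial clusters, and at least 3 markers. Doublets were marked with Scrublet and left out only as an alternative. Where its own threshold marked too few barcodes (2VO 1), the mean threshold of the other libraries was used.

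Counts were summed per library and class or segment with at least 10 cells in each library, and 2VO was compared with sham by the quasi-likelihood test of edgeR 4.0.16 (TMM, filterByExpr, Benjamini-Hochberg adjustment within a class). Genes past a fold of 1.5 with an adjusted p under 0.05 were called. With a single 2VO library, each gene had 1 residual degree of freedom, which came from the sham pair. The test moves the spread of each gene towards one shared over genes, weighted by prior degrees of freedom. These were 6.75 in ECs and infinite in venous-like cells, capillary-like cells, GLUTNs and GABANs. The spread used was thus mostly shared in ECs and wholly shared where the weight was infinite. The p-values therefore do not measure how much a given gene varied between mice. SE is the log2 fold change over the root of F and has the same limit. In simulated counts of 12060 genes in ECs, changes were put only into genes above a set expected count. The sham levels of *Sele*, *Selp* and *Ackr1* do not reach it, so the rates do not cover these genes. At a dispersion of 0.02, 51% of 2-fold and 100% of 4-fold changes were recovered with 12 false calls. At a dispersion of 0.1, 1% and 39% were recovered.

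Pooled ratios and shares carry exact 95% intervals for counting error, and a count of 0 was read as allowing up to 3. Named were the 8 genes in each class, from each pathway list the genes called in ECs and otherwise the 2 with the smallest p (*Rela*, *Nfkbia* and genes called in venous-like cells were named after their values were seen), and up to 3 genes most like each of the 8. Some genes that this rule names are not reported here. Alternatives were relative log expression size factors, DESeq2 1.42.0, no filter on low counts, 200 genes per barcode, resolution 2.0, the 8 genes allowed in clustering and each sham library left out.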

Additional observations from a re-analysis of the deposited data

How the results depend on the processing

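The 5 calls in ECs were kept with relative log expression size factors, no filter on low counts, barcodes with 200 or more genes, doublets left out, resolution 2.0, and *Lcn2*, *Lrg1* and the NF-kB list left out of the clustering genes. They fell to 3 with DESeq2, to 2 with the 8 genes allowed in clustering and to 0 without the venous-like cells. In the last of these, *Selp* and *Ackr1* did not pass the filter on low counts and were not tested. Beside the 5 calls in segments of the main fit, there were 2 with DESeq2 and 2 with no filter on low counts. With no filter all calls in venous-like cells were lost, so these 2 are not both among the 5. There were 3 with *Lcn2*, *Lrg1* and the NF-kB list left out of the clustering genes. With 200 or more genes per barcode there were 4, and *Selp* in venous-like cells lost its call (edgeR adjusted p = 0.713). With the 8 genes allowed in clustering, the log2 fold changes in venous-like cells were 5.94 for *Sele*, 3.69 for *Ackr1* and 1.18 for *Icam1*, each still called, against 7.22, 5.02 and 1.72, and *Selp* had no value. The 4 calls in other classes became 0 with DESeq2, 19 with no filter, 12 with doublets left out, 8 at resolution 2.0, 7 with the 8 genes allowed in clustering and 7 with *Lcn2*, *Lrg1* and the NF-kB list left out. The 12 pathway genes called in ECs became 6 with DESeq2, 33 with no filter, 21 with 200 or more genes per barcode and 6 with the 8 genes allowed in clustering. For each of these the cause was not tested. The share of all genes called under each of these settings is not reported here, so the counts are no result about these genes. *Icam1* in arterial-like cells, not called, turned to a log2 fold change of -0.038 at resolution 2.0. The arterial call of *Vcam1* was also lost there (adjusted p = 0.159). Of 169 refits of single values with a test, 152 kept their direction and side of the threshold, 16 lost a call and 1 reversed. The 152 include values that were never called, and refits where DESeq2 gave no adjusted p are left out. The count therefore does not measure how stable the calls are. Of 44 values without a sham library, which had no test, 36 moved by less than the standard deviation of the 2 sham values and 8 by more. Leaving out 1 of 2 libraries mostly shifts their mean by less than that deviation, so this count is no check of robustness.

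The venous-like cluster held 6.89%, 6.16% and 14.0% of the ECs of sham 1, sham 2 and 2VO 1, and these shares became 1.84%, 2.81% and 7.80% with 200 or more genes per barcode and 3.11%, 3.15% and 11.7% with *Lcn2*, *Lrg1* and the NF-kB list left out of clustering. The group 2VO rests on 1 library, which was the shallowest, so no result here has a check between 2VO mice. No paired analysis was possible because the groups with a count matrix share only replicate number 1.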

Other observations

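The markers that define venules did not move as a block in venous-like cells. *Lcn2* and *Lrg1* were called higher in 2VO. *Nr2f2*, a transcription factor of venous identity, stood at 215, 196 and 177 CPM in sham 1, sham 2 and 2VO 1 (edgeR adjusted p = 0.888). The amino acid transporter gene *Slc38a5* stood at 494, 484 and 824 CPM (adjusted p = 0.275), *Ctsc* at 261, 288 and 238 CPM (adjusted p = 0.896) and *Tmem252* at 336, 740 and 810 CPM (adjusted p = 0.518). The 9 markers named the cluster and were among the genes open to its clustering, so these values describe the cells that were grouped and are no test of venous identity.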
